A study of Drosophila melanogaster with 12 samples.

Results

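Chaperones and chaperonins are the proteins that fold other proteins. They were taken here as every probe set that measures 1 gene whose current symbol begins with Hsp and a digit, Hsc70, CCT and a digit, DnaJ, Trap1 or Droj2. This gave 27 probe sets for 25 genes, of 11981 genes with a probe set of their own (13646 such probe sets, of 18769 in all). The cells were ML-DmBG3, a single Drosophila line derived from central nervous system, and transcripts were measured on Affymetrix Drosophila Genome 2.0 arrays. There were 3 treatments of 4 arrays each: Rad21 RNAi against a cohesin subunit, Nipped-B RNAi against the factor that loads cohesin on chromosomes, and mock treatment without dsRNA. Each treatment had 2 arrays at day 3, 1 at day 4 and 1 at day 6 after treatment. Knockdown cells received 40 µg of dsRNA per well in the day 3 samples and 10 µg in the day 4 and day 6 samples, so dose and day cannot be told apart. Mock wells received 0 µg, so the addition of dsRNA and the loss of its target cannot be told apart either.

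Chaperones of the Hsp70 family bind unfolded stretches of protein in cycles of ATP use, J proteins bring them their clients, and small heat shock proteins hold damaged proteins until they are refolded. Chaperonins are closed barrels in which a protein folds on its own: CCT folds actin and tubulin in the cytosol, and Hsp60 works in the mitochondrial matrix with an Hsp10 lid. Some members are made at all times, others mainly after heat or other stress.

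Deposited values are on a log2 scale, and a probe set was tested where 2 or more of the 12 arrays reached 4. This held for 20 of the 27 probe sets. The tested ones were all 8 CCT subunits, Hsp60A, 6 of the Hsp70, Hsp110 and Hsp90 class, 3 J proteins and 2 small heat shock proteins. The other 7 stayed under this limit on every array: Hsp60B, Hsp60C, Hsp60D, Hsc70-2 and the 3 probe sets of Hsc70-1. Their means lay between 2.22 and 3.10, where the median of all untested probe sets was 2.26 to 2.27. Another 11 probe sets match the rule but measure several genes at once, among them those of the strongly heat-inducible Hsp70 copies, and were kept apart.

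The probe set of Nipped-B itself read 2.28 to 2.29 in Nipped-B RNAi cells and 2.28 to 2.29 in mock cells, at background, so it gives no check of the knockdown. That of Rad21 was not analysed here. The cell markers were checked in the same table. Of the genes with a probe set, 1 of 7 neuronal markers (elav), 4 of 7 glial markers (repo, wrapper, moody, nrv2) and 2 of 7 neuroblast markers (insc, mira) were measured, and the defining neuroblast genes dpn, wor and ase were at background. Both muscle markers with a probe set (up, Act88F) were at background, while 1 of 3 germline markers (osk) and 4 of 8 haemocyte markers (srp, Pxn, crq, eater) were measured and the defining haemocyte genes Hml, NimC1 and He were at background. The summed haemocyte markers reached log2 13.51 to 13.85 in Rad21 RNAi cells, 13.42 to 13.85 in Nipped-B RNAi cells and 13.004 to 13.45 in mock cells, and the summed glial markers 13.63 to 13.75, 13.53 to 13.92 and 13.40 to 13.66. These sums are carried by srp, moody and nrv2, and single markers went the other way. Glial wrapper read 2.56 to 3.04 with Rad21 RNAi and 2.64 to 2.74 with Nipped-B RNAi, against 4.29 to 5.17 in mock cells, while nrv2 read 12.35 to 12.55 and 12.21 to 12.69, against 11.70 to 12.15. Haemocyte eater read 6.39, 6.03, 2.497 and 2.64 with Rad21 RNAi and 6.82, 6.04, 2.87 and 3.89 with Nipped-B RNAi in replicates 1 to 4, against 7.18, 6.86, 5.78 and 6.74 in mock cells. Their part in the results was not tested, and in these bulk samples fewer cells of a type and less RNA per cell cannot be told apart.

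Most measured chaperone transcripts differed from mock in both knockdowns, and more of them were lower than higher. With Rad21 RNAi 16 of 20 probe sets were called at an adjusted p of at most 0.1: 12 fell, namely all 8 CCT subunits, Hsp60A, Hsc70-5, Trap1 and Droj2, and 4 rose, namely Hsp27, DnaJ-H, Hsp68 and Hsc70-3. Among all 7350 tested probe sets 51.5% were called, 24.1% lower and 27.3% higher. With Nipped-B RNAi 15 were called, 11 lower and 4 higher, against 44.3% of all probe sets, 19.9% lower and 24.4% higher. These 15 were all among the 16 called with Rad21 RNAi, and CCT4 was the member that did not pass with Nipped-B RNAi. The median log2 difference over the 20 members was -0.21 with Rad21 RNAi and -0.18 with Nipped-B RNAi, beside 0.04 and 0.05 over all tested probe sets. Both comparisons use the same 4 mock arrays.

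**Figure D1:**
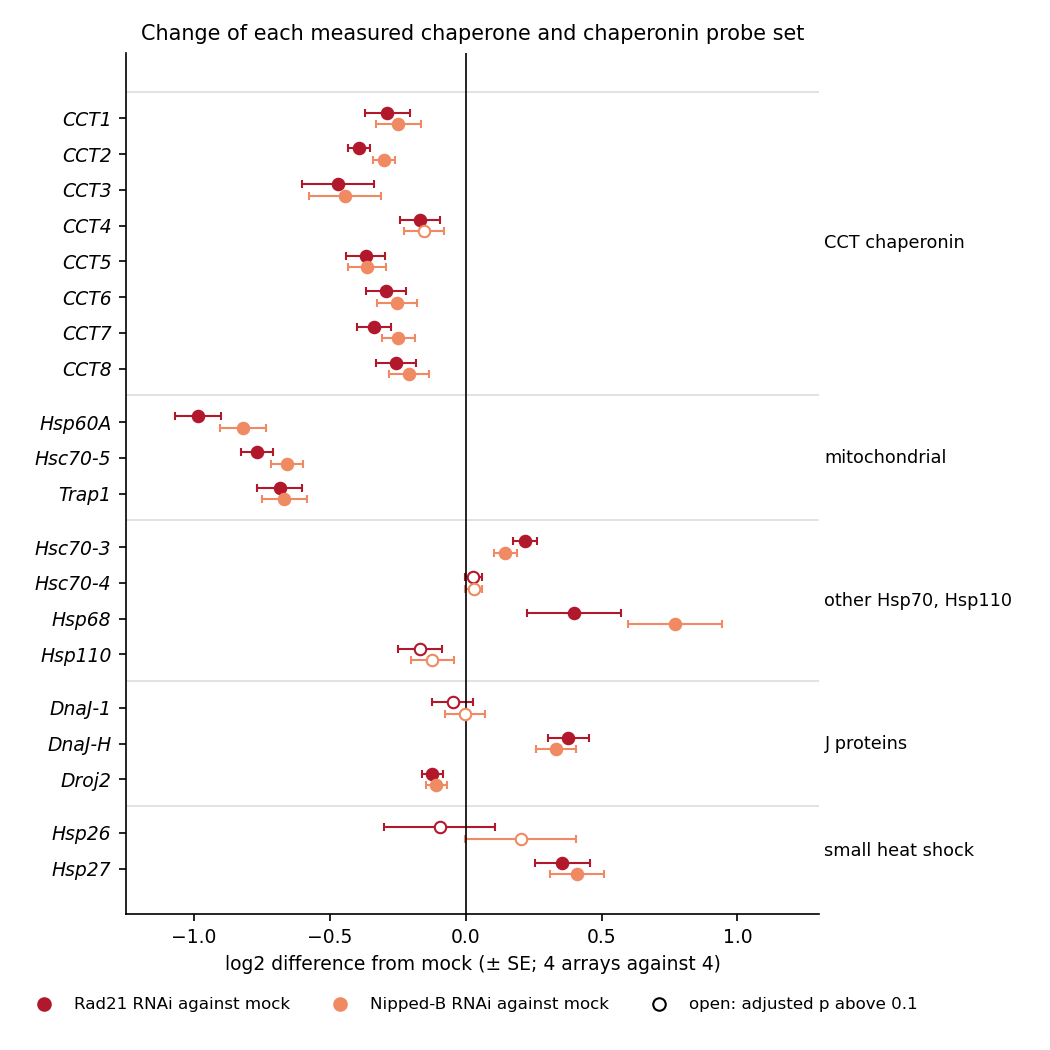
Log2 difference from mock of each of the 20 measured probe sets (horizontal axis, with SE), for Rad21 RNAi (dark red) and Nipped-B RNAi (orange). Filled points were called at an adjusted p of at most 0.1; the 3 mitochondrial members lie between -0.98 and -0.66, the 8 CCT subunits between -0.47 and -0.15.

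DnaJ-1, Hsc70-4, Hsp110 and Hsp26 were called in neither comparison. For Hsp110, the exchange factor of the Hsp70 cycle also known as Hsc70Cb, the log2 difference was -0.17 ± 0.08 (SE) with Rad21 RNAi and -0.12 ± 0.08 with Nipped-B RNAi. With the replicate number as a block, the fit in which same-numbered arrays are paired, Hsp110 passed in both knockdowns (adjusted p = 0.0274 for Rad21, 0.0905 for Nipped-B), and CCT4 passed in Nipped-B RNAi cells at adjusted p = 0.0101. Hsp110 also passed without mock replicate 4, where it read lowest.

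The mitochondrial chaperones changed the most among members that fell. Hsp60A, the barrel chaperonin of the matrix, read 12.07 and 12.12 at day 3, 12.60 at day 4 and 12.65 at day 6 in Rad21 RNAi cells. In Nipped-B RNAi cells it read 12.64, 12.25, 12.69 and 12.53 on the same days, and in mock cells 13.22, 13.11, 13.59 and 13.45. All 8 knockdown arrays lay below all 4 mock arrays, and the lowest were the Rad21 RNAi arrays of day 3. The change was -0.98 ± 0.08 (SE, adjusted p = 7.28e-05), 1.98-fold lower, with Rad21 RNAi, and -0.82 ± 0.08 (adjusted p = 0.000303), 1.76-fold lower, in Nipped-B RNAi cells. The related genes Hsp60B, Hsp60C and Hsp60D were at background on every array.

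Hsc70-5, the mitochondrial Hsp70, followed the same order. It read 12.32, 12.33, 12.79 and 12.80 in Rad21 RNAi cells and 12.75, 12.49, 12.71 and 12.73 in Nipped-B RNAi cells, against 13.23, 13.14, 13.51 and 13.42 in mock cells. The groups did not overlap, and the differences were -0.77 ± 0.06 with Rad21 RNAi and -0.66 ± 0.06 with Nipped-B RNAi, 1.70-fold and 1.58-fold lower. Trap1, the Hsp90 of mitochondria, read 8.94, 9.01, 9.18 and 9.06 with Rad21 RNAi and 9.15, 8.90, 9.08 and 9.14 with Nipped-B RNAi, against 9.62, 9.51, 10.02 and 9.77 in mock cells. Again no knockdown array reached the lowest mock array, and Trap1 fell by 0.68 ± 0.08 and 0.67 ± 0.08 on the log2 scale. Over all days, each of the 3 mitochondrial members stayed called in both knockdowns in all 12 fits that left out 1 array. They were also called at day 3 and over days 4 and 6 in both knockdowns. The Nipped-B calls at day 3 rested on single arrays: Hsp60A and Trap1 lost theirs without mock replicate 1 and without Nipped-B replicate 2, and Trap1 also without mock replicate 2.

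**Figure D2:**
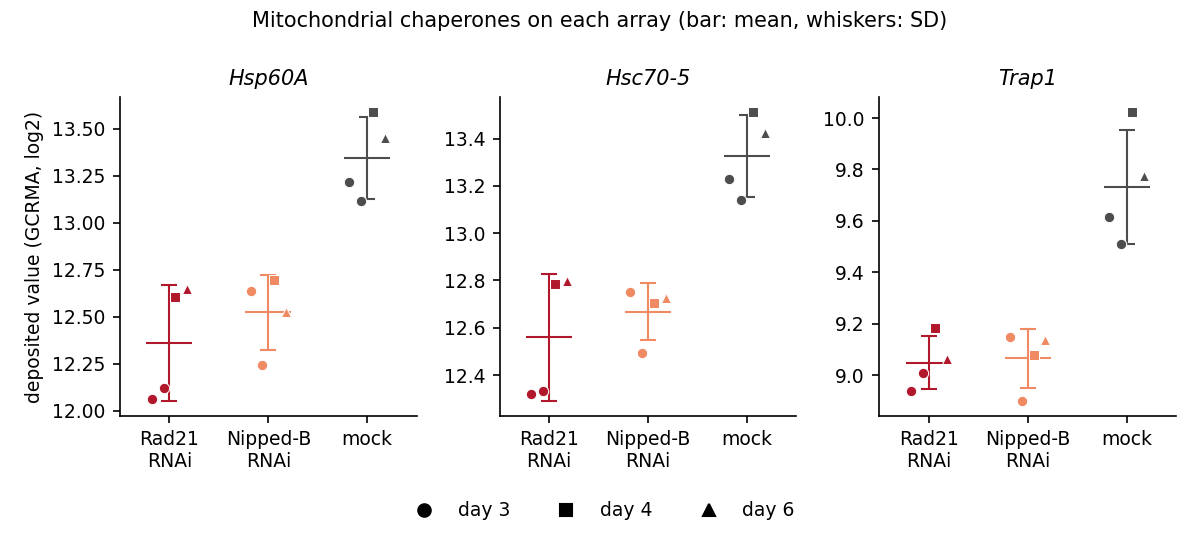
Deposited log2 values of Hsp60A, Hsc70-5 and Trap1 on each array (vertical axis), for Rad21 RNAi, Nipped-B RNAi and mock; symbols give the day, horizontal bars the mean and whiskers the SD over 4 arrays. In each panel all 8 knockdown arrays lie below all 4 mock arrays.

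Not overlapping with mock was common among all probe sets. In Rad21 RNAi cells 15.2% of the tested probe sets lay wholly below mock and 14.5% wholly above. Of the 20 members, 8 lay wholly below, namely these 3, CCT2, CCT5, CCT6, CCT7 and Droj2, and 2 lay wholly above, namely DnaJ-H and Hsc70-3. In Nipped-B RNAi cells 9.77% lay wholly below and 10.8% wholly above, and the same members did so except Droj2, whose highest array reached 13.15 against 13.13 for the lowest mock array.

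Other genes of mitochondrial folding and quality control were lower too. Of 12 listed genes 11 were tested, and 10 fell in each knockdown, where 24.1% of all probe sets were lower with Rad21 RNAi and 19.9% with Nipped-B RNAi. The list median was -0.58 with Rad21 RNAi and -0.52 with Nipped-B RNAi, beside 0.04 and 0.05 over all probe sets. CG11779 had the largest change, -1.18 ± 0.12 and -0.91 ± 0.12. The Hsp10 gene CG11267, which encodes the lid of the Hsp60 barrel, read 11.63, 11.58, 11.82 and 11.88 with Rad21 RNAi and 12.05, 11.76, 11.75 and 11.62 with Nipped-B RNAi, against 12.62, 12.55, 12.70 and 12.44 in mock cells. It thus fell with its partner Hsp60A, by 0.86 ± 0.08 and 0.79 ± 0.08 on the log2 scale, and no knockdown array reached the mock range. Roe1, the nucleotide exchange factor of mitochondrial Hsp70, changed by -0.74 ± 0.08 and -0.64 ± 0.08, and CG7394, listed as TIM14 of the import motor, by -0.69 ± 0.11 and -0.60 ± 0.11. ClpX, the unfoldase of a matrix protease, was the exception: its differences of 0.10 ± 0.06 and 0.09 ± 0.06 did not pass, while the protease subunit ClpP fell by 0.27 ± 0.05 and 0.24 ± 0.05 on the log2 scale.

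**Figure D3:**
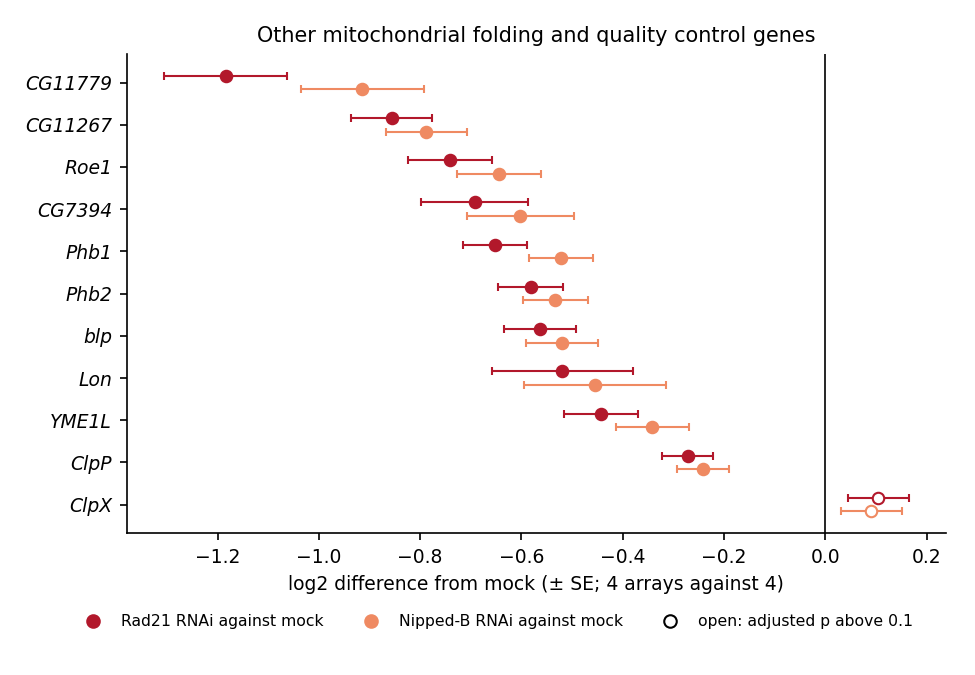
Log2 difference from mock (horizontal axis, with SE) of the 11 tested genes of the mitochondrial folding list, for Rad21 RNAi (dark red) and Nipped-B RNAi (orange). Open points were not called, which holds for ClpX alone; the other 10 were called lower, and CG11779 lies at -1.18 and -0.91.

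The subunits of the cytosolic CCT barrel moved together. The complex is built from rings of 8 different subunits, each encoded by its own gene, and all 8 had a measured probe set. With Rad21 RNAi all 8 fell, beside 24.1% of all probe sets. The falls were 0.17 (CCT4) to 0.47 (CCT3) on the log2 scale with a median of -0.32. With Nipped-B RNAi 7 of 8 fell, beside 19.9% of all probe sets. The CCT median was -0.25, and CCT4 differed by -0.15 ± 0.07 (adjusted p = 0.134). The changes were smaller than those of the mitochondrial members, and the CCT and mitochondrial ranges did not meet in either knockdown.

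CCT5 and CCT2 show the pattern most clearly. CCT5 read 13.39, 13.34, 13.59 and 13.49 with Rad21 RNAi and 13.57, 13.36, 13.50 and 13.40 with Nipped-B RNAi, against 13.88, 13.80, 13.94 and 13.66 in mock cells. The groups did not overlap, and the differences were -0.37 ± 0.07 (adjusted p = 0.00335) and -0.36 ± 0.07 (adjusted p = 0.00501), 1.29-fold lower in each. CCT2 read 12.61, 12.74, 12.95 and 12.94 with Rad21 RNAi, 12.89, 12.88, 12.90 and 12.94 with Nipped-B RNAi, and 13.16, 13.11, 13.28 and 13.26 in mock cells. Its differences were -0.39 ± 0.04 and -0.30 ± 0.04, and in Rad21 RNAi cells the day 3 arrays were the lower ones.

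CCT3 had the largest mean change, -0.47 ± 0.13 with Rad21 RNAi and -0.44 ± 0.13 with Nipped-B RNAi, but also the widest spread. Its mock arrays ranged from 12.08 at day 6 to 12.75 at day 3, and the day 6 mock array lay inside the range of 11.74 to 12.16 of the Rad21 RNAi arrays. The same mock array, replicate 4, was the lowest of the 4 mock arrays for CCT1, CCT3, CCT4, CCT5, CCT6 and CCT8. Several CCT calls depended on the arrays used. CCT4 with Rad21 RNAi was called in 4 of 12 fits without 1 array, and was -0.10 (adjusted p = 0.26) without mock replicate 3. CCT8 with Nipped-B RNAi was called in 7 of 12 such fits, and was -0.13 (adjusted p = 0.118) without the same array. With Nipped-B RNAi, CCT1 was called in 8 of 12 fits and CCT3 in 11 of 12.

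**Figure D4:**
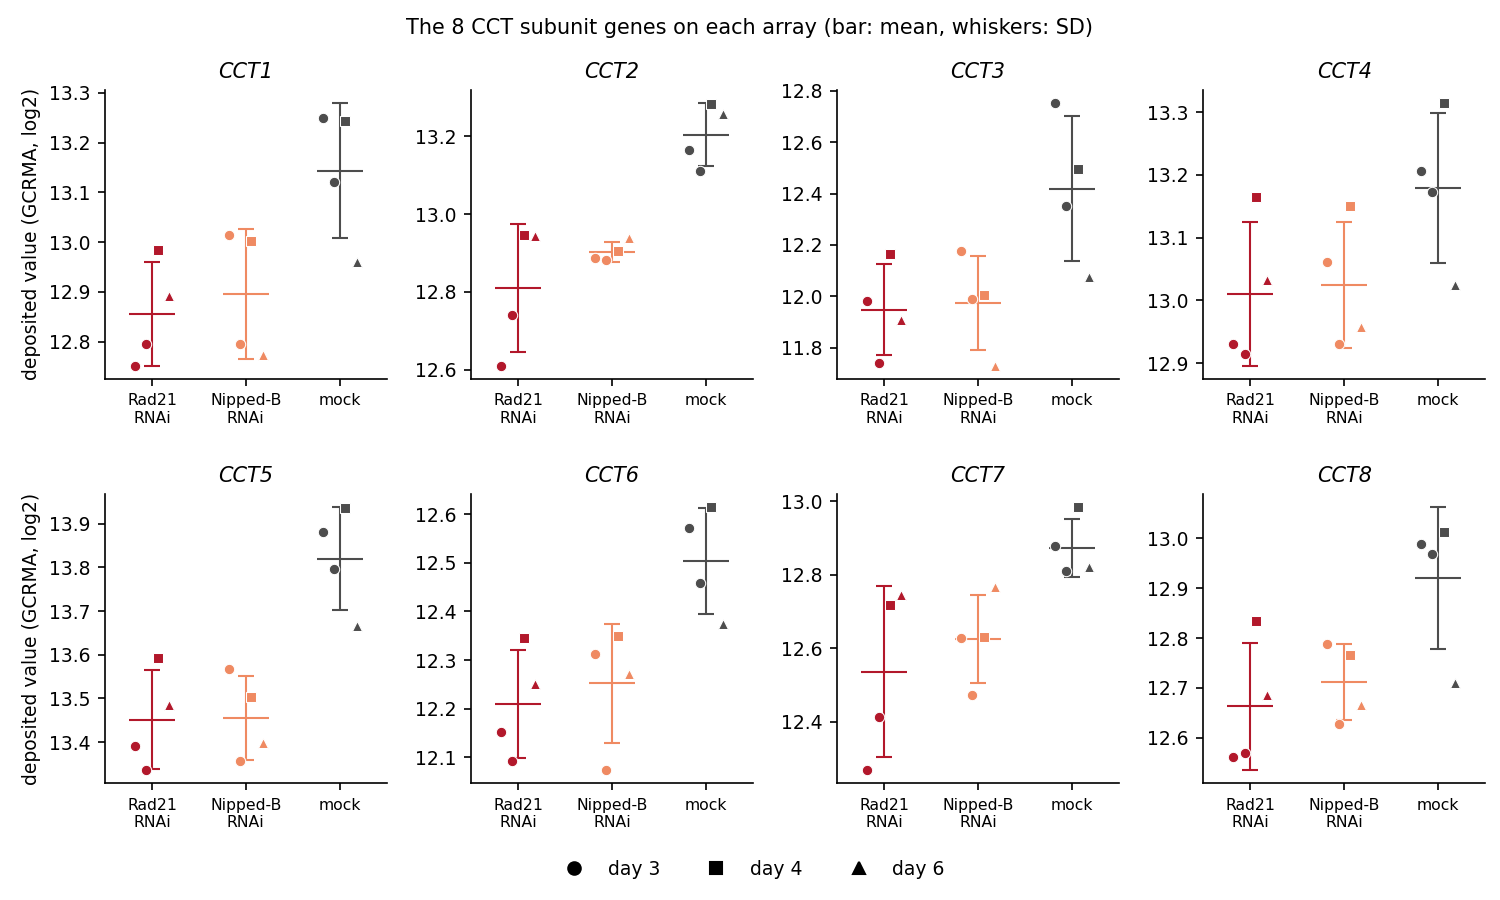
Deposited log2 values of the 8 CCT subunit genes on each array (vertical axis), for Rad21 RNAi, Nipped-B RNAi and mock; symbols give the day, horizontal bars the mean and whiskers the SD over 4 arrays. Mock means are the highest in all 8 panels, and CCT2, CCT5, CCT6 and CCT7 show no overlap between knockdown and mock arrays.

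At days 3, 4 and 6, the median log2 difference of the 8 subunits from mock was -0.44, -0.27 and -0.10 with Rad21 RNAi. With Nipped-B RNAi it was -0.29, -0.31 and -0.15. Days 4 and 6 have 1 array per treatment each. Set against the mean of all mock arrays, the subunits averaged 0.10 at day 4 and -0.15 at day 6 in mock cells. They averaged -0.16 and -0.27 with Rad21 RNAi, and -0.22 and -0.32 with Nipped-B RNAi. The smaller difference at day 6 than at day 4 thus came with a lower mock array, not with higher knockdown arrays. Against day 3 the later Rad21 RNAi arrays were also higher. The day 3 arrays averaged -0.43 and -0.43 with Rad21 RNAi, -0.20 and -0.37 with Nipped-B RNAi, and 0.08 and -0.03 in mock cells. At day 3, 7 of 8 subunits were called lower with Rad21 RNAi and 3 with Nipped-B RNAi, beside 15.8% and 6.93% of all probe sets. Over days 4 and 6, only 2 of 8, CCT2 and CCT5, were called lower in each knockdown. Without the replicate block this is near the share of all probe sets, 20.0% with Rad21 RNAi and 17.5% with Nipped-B RNAi. The block added CCT1, CCT3 and CCT6 as lower over days 4 and 6 with Rad21 RNAi. It added CCT1, CCT3, CCT6, CCT7 and CCT8 with Nipped-B RNAi. Of all 7350 probe sets the block called 1849 lower with Rad21 RNAi and 1644 with Nipped-B RNAi, against 1470 and 1284 without it. The CCT7 change in Rad21 RNAi cells was smaller at days 4 and 6 than at day 3 by 0.33 ± 0.12 (unadjusted p = 0.0244, adjusted p = 0.287), which did not pass over all probe sets. With the replicate block, CCT3 (0.44, adjusted p = 0.0526) and CCT8 (0.31, adjusted p = 0.0983) passed this test of the time difference in Rad21 RNAi cells.

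Among the genes that work before or after CCT some rose and some fell. Of 15 listed genes for prefoldin, which hands actin and tubulin to CCT, and for helpers of CCT and tubulin folding, 14 were tested, and 6 rose and 2 fell in each knockdown. Over all probe sets 27.3% were higher and 24.1% lower with Rad21 RNAi, and 24.4% and 19.9% with Nipped-B RNAi. The risers were led by tubulin folding cofactors that act after CCT: Tbcd changed by 0.42 ± 0.07 with Rad21 RNAi and 0.38 ± 0.07 with Nipped-B RNAi, Tbcc by 0.39 ± 0.09 and 0.33 ± 0.09, and Tbce by 0.24 ± 0.06 and 0.18 ± 0.06. The phosducin-like gene viaf rose by 0.35 ± 0.15 with Rad21 RNAi, while its 0.31 ± 0.15 with Nipped-B RNAi did not pass (adjusted p = 0.152; 0.00187 with the replicate block). The Rad21 call of viaf was lost in 8 of 12 fits without 1 array, and its value was 0.21 without mock replicate 4. The prefoldin subunits Pfdn2 (-0.26 ± 0.09 and -0.25 ± 0.09) and Pfdn6 (-0.22 ± 0.06 and -0.18 ± 0.06) were those that fell. Without mock replicate 3 Pfdn2 was -0.16 and -0.15, the second no longer called. In all, the Pfdn2 call was lost in 4 of 12 fits without 1 array with Rad21 RNAi and in 5 of 12 with Nipped-B RNAi. The Pfdn6 call was lost in 0 of 12 and 6 of 12.

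The constitutive Hsp70 of the cytosol, Hsc70-4, was not called in either knockdown. It read 15.12 to 15.19 in Rad21 RNAi cells and 15.13 to 15.20 in Nipped-B RNAi cells, against 15.03 to 15.19 in mock cells, so all groups overlapped. The differences were 0.03 ± 0.03 in both knockdowns, with 95% intervals of -0.04 to 0.10. DnaJ-1, the main heat-inducible Hsp40, had intervals of -0.22 to 0.12 with Rad21 RNAi and -0.17 to 0.17 with Nipped-B RNAi. Droj2, another J protein of the Hsp40 class, fell by 0.12 ± 0.04 and 0.11 ± 0.04 on the log2 scale, a call that was lost in 2 of 12 and 5 of 12 fits without 1 array.

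Several partners of Hsp70 and Hsp90 fell. Of 11 tested co-chaperones on the list, 7 fell and none rose in each knockdown, with medians of -0.25 and -0.20, where 24.1% and 19.9% of all probe sets were lower. Fkbp59, a prolyl isomerase that binds Hsp90, changed by -0.39 ± 0.07 and -0.36 ± 0.07. Stip1, which bridges Hsp70 and Hsp90, changed by -0.36 ± 0.06 and -0.31 ± 0.06, and the Aha1 gene CG1416, an activator of the Hsp90 ATPase, by -0.33 ± 0.05 and -0.335 ± 0.05. For nudC the differences were -0.26 ± 0.08 and -0.25 ± 0.08, and -0.16 and -0.15 without mock replicate 3. The main cytosolic Hsp90, Hsp83, was not analysed here.

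Hsc70-3, the Hsp70 of the endoplasmic reticulum known as BiP in mammals, was among the members that rose. It read 14.02, 14.14, 14.21 and 14.07 in Rad21 RNAi cells and 14.06, 14.04, 14.05 and 13.998 in Nipped-B RNAi cells, against 13.92, 13.91, 13.90 and 13.83 in mock cells. All 8 knockdown arrays were above all 4 mock arrays, and the changes were small, 0.22 ± 0.04 (adjusted p = 0.00351) and 0.15 ± 0.04 (adjusted p = 0.0278). Of 21 other tested genes of that compartment, 2 rose and 7 fell with Rad21 RNAi, where 51.5% of all probe sets were called, and 1 rose and 6 fell with Nipped-B RNAi, where 44.3% were. The disulfide isomerase ERp60 rose by 0.25 ± 0.05 and 0.15 ± 0.05, and ERp44 by 0.17 ± 0.05 with Rad21 RNAi.

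Of the sensors of unfolded protein in that compartment, PEK and Ire1 fell and Atf6 did not pass (0.18 ± 0.32 with Rad21 RNAi and 0.16 ± 0.32 with Nipped-B RNAi). The kinase PEK, which slows translation, changed by -0.52 ± 0.06 with Rad21 RNAi and -0.42 ± 0.06 with Nipped-B RNAi, and Ire1 by -0.44 ± 0.12 and -0.40 ± 0.12. PPP1R15, which helps reverse the action of PEK, changed by -0.34 ± 0.08 and -0.22 ± 0.08, and the second of these was -0.14 (adjusted p = 0.155) without mock replicate 4. Its Nipped-B call was lost in 4 of 12 fits without 1 array. The oxidase Ero1L fell by 0.49 ± 0.11 on the log2 scale with Rad21 RNAi, and its -0.22 ± 0.11 with Nipped-B RNAi did not pass (adjusted p = 0.159; 0.0711 with the replicate block). ERp44 behaved likewise with Nipped-B RNAi, at 0.10 ± 0.05 (adjusted p = 0.178; 0.0604 with the block).

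Among the J proteins, DnaJ-H had the clearest rise. It read 10.06, 10.21, 10.19 and 10.12 with Rad21 RNAi and 9.96, 9.88, 10.43 and 10.14 with Nipped-B RNAi, against 9.74, 9.70, 9.85 and 9.79 in mock cells. No knockdown array fell into the mock range, the Nipped-B RNAi array of day 4 was the highest, and the changes were 0.38 ± 0.07 (adjusted p = 0.00375) and 0.33 ± 0.07 (adjusted p = 0.0091). Of 25 other tested J proteins on the list, 5 rose and 11 fell with Rad21 RNAi, beside 27.3% and 24.1% of all probe sets, and 3 rose and 8 fell with Nipped-B RNAi, beside 24.4% and 19.9%. The called J proteins, 16 of 25 with Rad21 RNAi and 11 of 25 with Nipped-B RNAi, stand beside 51.5% and 44.3% of all probe sets.

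Some of these J proteins outside the naming rule changed by more than the 3 inside it. Tpr2, which carries both a J domain and repeats that bind chaperones, read 11.99, 12.06, 12.47 and 12.63 with Rad21 RNAi and 11.72, 11.57, 11.62 and 12.16 with Nipped-B RNAi, against 11.58, 11.51, 11.32 and 11.29 in mock cells. In Rad21 RNAi cells it lay above mock on every array and was highest at day 6. Its changes were 0.86 ± 0.11 (adjusted p = 0.000347) and 0.34 ± 0.11 (adjusted p = 0.0346; 0.21 without Nipped-B replicate 4), and l(3)80Fg changed by 0.99 ± 0.20 and 0.82 ± 0.20. CG5001 rose by 1.31 ± 0.27 and 0.78 ± 0.27 but was under log2 4 on all 4 mock arrays, and with such values set to 4 its Nipped-B change was 0.41 (adjusted p = 0.239).

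The largest falls among the other J proteins were those of CG7130 (-0.98 ± 0.14 and -0.63 ± 0.14), Hsc20 (-0.82 ± 0.13 and -0.58 ± 0.13), CG8531 (-0.81 ± 0.08 and -0.69 ± 0.08) and Dph4 (-0.61 ± 0.11 and -0.32 ± 0.11), the first of each pair with Rad21 RNAi. Without Nipped-B replicate 4 the Nipped-B change of Dph4 was -0.19 (adjusted p = 0.106), and this call was lost in 4 of 12 fits without 1 array. Hsc20 serves the assembly of iron-sulfur clusters in mitochondria, and Dph4 the modification of an elongation factor. The gene mrj rose by 0.25 ± 0.09 with Rad21 RNAi (0.15 without mock replicate 3), a call lost in 3 of 12 fits without 1 array. Its 0.12 ± 0.09 with Nipped-B RNAi did not pass.

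The heat shock members Hsp68 and Hsp27 rose, and Hsp26 did not pass. Hsp68, an Hsp70 that is induced by heat, read 8.22 and 8.25 at day 3, 8.36 at day 4 and 8.62 at day 6 with Rad21 RNAi. With Nipped-B RNAi it read 8.14, 8.03, 9.64 and 9.12, and in mock cells 7.69, 7.62, 7.88 and 8.66. At days 3 and 4 both knockdowns were above mock, while at day 6 Rad21 RNAi and mock were level, so that the groups overlapped through the day 6 mock array. The change was 0.77 ± 0.17 (adjusted p = 0.00949), 1.70-fold, with Nipped-B RNAi, and it stayed called in all 12 fits without 1 array, between 0.57 and 0.96. With Rad21 RNAi it was 0.40 ± 0.17 (adjusted p = 0.0946), was called in 3 of these 12 fits, and was 0.20 (adjusted p = 0.248) without mock replicate 3.

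The small heat shock proteins Hsp26 and Hsp27 sit, with Hsp22, in one run of neighbouring heat shock genes in the gene table of genome Release 6. Hsp27 read 13.65, 13.69, 13.78 and 13.89 with Rad21 RNAi and 13.49, 13.54, 14.18 and 14.01 with Nipped-B RNAi, against 13.05, 13.33, 13.38 and 13.83 in mock cells. On each day the knockdown arrays were above the mock arrays of that day, and only the day 6 mock array reached the knockdown ranges. The changes were 0.36 ± 0.10 (adjusted p = 0.0191) and 0.41 ± 0.10 (adjusted p = 0.0133), and neither was lost without 1 array. With treatment as the only term in the model, Hsp27 and Hsp68 passed in neither knockdown.

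Hsp26 was higher on the later days than at day 3 in all 3 treatments. It read 12.50, 12.43, 12.77 and 13.27 with Rad21 RNAi, 12.60, 12.30, 13.89 and 13.37 with Nipped-B RNAi, and 12.34, 12.24, 12.94 and 13.84 in mock cells. The order of the groups changed from day to day, and the differences of -0.10 ± 0.20 and 0.20 ± 0.20 had 95% intervals of -0.56 to 0.37 and -0.26 to 0.67. Of 4 other small heat shock genes with a probe set, none reached the limit for testing.

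**Figure D5:**
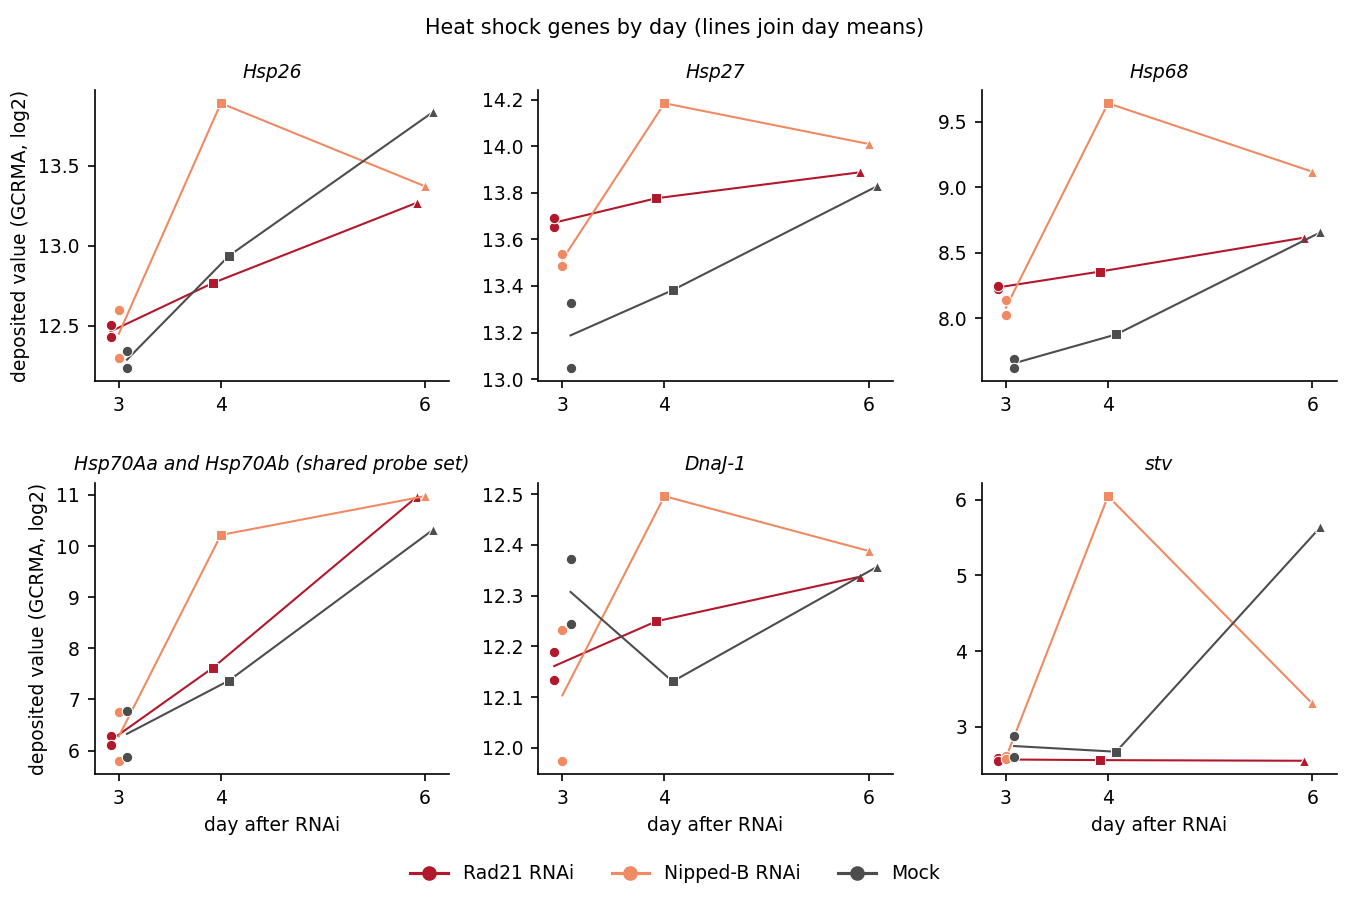
Deposited log2 values (vertical axis) by day after RNAi (horizontal axis) of Hsp26, Hsp27, Hsp68, the probe set shared by Hsp70Aa and Hsp70Ab, DnaJ-1 and stv; points are arrays, and lines join the mean of each day. The Nipped-B RNAi array of day 4 is the highest of the day in all 6 panels, and stv is above log2 5 on this array (6.05) and on the day 6 mock array (5.64).

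For several heat shock transcripts 1 array stood out, and for stv another did too. The Nipped-B RNAi array of day 4 was the highest of the 12 for Hsp26, Hsp27, Hsp68, DnaJ-1, DnaJ-H and stv, the BAG co-chaperone that assists Hsp70. The probe set shared by the heat-inducible copies Hsp70Aa and Hsp70Ab read 10.22 on this array, against 7.62 with Rad21 RNAi and 7.37 in mock cells at day 4. At day 6 it read 10.96 with Rad21 RNAi, 10.98 with Nipped-B RNAi and 10.32 in mock cells, and at day 3 all 6 arrays lay between 5.80 and 6.77. The probe set of Hsp70Ba, Hsp70Bb, Hsp70Bbb and Hsp70Bc read 11.30 on the Nipped-B RNAi array of day 4, against 7.88 in mock cells. That of Hsp70Bb and Hsp70Bc read 10.53 against 6.87. For both, this array was the highest of the 12. The mock array of day 6 was the only other one with stv above log2 4, at 5.64, while on all 4 Rad21 RNAi arrays stv read 2.55 to 2.59. Neither stv (adjusted p = 0.333 with Rad21 RNAi, 0.855 for Nipped-B) nor any of the tested Hsp70 probe sets of several genes was called with Rad21 or Nipped-B RNAi, at either time. Hsf, the heat shock factor that drives these genes, differed by -0.17 ± 0.07 (adjusted p = 0.0617) with Rad21 RNAi. This call was lost in 5 of 12 fits without 1 array, among them that without mock replicate 4 (-0.11, adjusted p = 0.153). It was also lost with treatment as the only term in the model (adjusted p = 0.528). The Nipped-B difference of Hsf was 0.00 ± 0.07.

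Without the Nipped-B RNAi array of day 4, 16 members were called with Nipped-B RNAi, and without the mock array of day 6, 18 were. Hsp26, Hsp110 and CCT4 were those gained without the mock array, with Hsp26 at 0.43 (adjusted p = 0.0778).

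Some chaperones also changed with time without knockdown. Between day 3 and the later days, 6 of 20 members were called in mock cells, 5 higher and 1 lower, against 35.2% of all probe sets, 14.4% higher and 20.8% lower. Hsp26 rose by 1.10 ± 0.29, Hsp27 by 0.42 ± 0.14, Hsp60A by 0.36 ± 0.12, Trap1 by 0.34 ± 0.12 and Hsc70-5 by 0.28 ± 0.08, and Hsc70-4 fell by 0.12 ± 0.04 on the log2 scale. Among the Hsp70 probe sets kept apart, that of Hsp70Ba, Hsp70Bb, Hsp70Bbb and Hsp70Bc rose by 2.33 ± 0.88 (adjusted p = 0.0839). That of Hsp70Bb and Hsp70Bc rose by 2.26 ± 0.91 (adjusted p = 0.0992), while 2.52 ± 1.13 for Hsp70Aa and Hsp70Ab did not pass. The mitochondrial members thus rose with time in mock cells and were lower with each knockdown than in mock cells. Their means were also higher on the later days in knockdown cells. With Rad21 RNAi, Hsp60A went from 12.09 at day 3 to 12.63, Hsc70-5 from 12.33 to 12.79 and Trap1 from 8.97 to 9.12. With Nipped-B RNAi they went from 12.44 to 12.61, 12.62 to 12.72 and 9.02 to 9.11. The counts rested on few arrays: 1 member was called without mock replicate 2, 2 without mock replicate 1 and 3 without mock replicate 4, where Hsp26 was 0.65 (adjusted p = 0.12). All 3 mitochondrial members lost this call without mock replicate 2 and without mock replicate 3. With the replicate block 10 were called, CCT2, CCT3, Hsp110 and Hsp68 in addition. Of all 7350 probe sets the block called 1490 higher and 2400 lower, against 1061 and 1528 without it.

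By time class, Rad21 RNAi called 14 members at day 3, 3 higher and 11 lower, against 30.8% of all probe sets (14.9% higher, 15.8% lower), and 7 at days 4 and 6, 2 higher and 5 lower, against 41.5% (21.5% higher, 20.0% lower). Nipped-B RNAi called 6 at day 3, all lower, against 11.9% (4.94% higher, 6.93% lower), and 9 at days 4 and 6, 4 higher and 5 lower, against 39.9% (22.5% higher, 17.5% lower). With the replicate block, Rad21 RNAi called 11 at days 4 and 6, and Nipped-B RNAi called 13 at day 3 and 14 at days 4 and 6. The added members were mostly CCT subunits. The block also called more of all 7350 probe sets. It called 2334 higher and 1849 lower with Rad21 RNAi at days 4 and 6. With Nipped-B RNAi it called 1023 higher and 1041 lower at day 3, and 2423 and 1644 at days 4 and 6. Each of these comparisons sets 2 arrays against 2, and single day 3 arrays moved the counts: Rad21 RNAi called 7 at day 3 without mock replicate 1 and 6 without Rad21 replicate 2, and Nipped-B RNAi called 1 without mock replicate 1 or Nipped-B replicate 2 and 2 without mock replicate 2. Without mock replicate 4, 11 members were called at days 4 and 6 with Rad21 RNAi and 16 with Nipped-B RNAi.

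The test of the time difference itself called no member in either knockdown, where 1.24% of all probe sets were called with Rad21 RNAi (0.367% higher, 0.871% lower) and 0.34% with Nipped-B RNAi (0.177% higher, 0.163% lower). At an unadjusted p under 0.05 there was 1 member in each: CCT7 with Rad21 RNAi, and DnaJ-1 with Nipped-B RNAi (0.40 ± 0.15, adjusted p = 0.429). For the mitochondrial members the 95% intervals of the difference between times were -0.21 to 0.56 for Hsp60A, -0.08 to 0.45 for Hsc70-5 and -0.56 to 0.19 for Trap1 with Rad21 RNAi.

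Set directly against each other, Rad21 RNAi and Nipped-B RNAi differed in none of the 20 members by limma, where 0.0952% of all probe sets were called, 0.0408% higher and 0.0544% lower in Rad21 RNAi cells. No member had all 4 Rad21 arrays above or below all 4 Nipped-B arrays, as 0.599% and 0.776% of all probe sets had. At an unadjusted p under 0.05 there was CCT2 alone, at -0.09 ± 0.04. The largest estimates were those of Hsp68 at -0.37, with a 95% interval of -0.76 to 0.02, and Hsp26 at -0.30, with an interval of -0.76 to 0.16. For Hsp60A the interval was -0.36 to 0.03 and for Hsc70-5 -0.24 to 0.02, so that smaller differences between the knockdowns were not detectable with 4 arrays each.

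The pattern of 2 members over the 12 arrays was set against 6380 other tested probe sets of 1 gene, as a description in which all points share the same arrays. Hsp60A was most like Tgt (Pearson r = 0.99), bor (0.99), mRpL3 (0.99), CG8520 (0.99) and CG5323 (0.98). Hsp68 was most like Tsp5D (0.95), CG11997 (0.94), Hrs (0.93), CG15879 (0.93) and pen-2 (0.93).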

How the data were processed

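RNA from 12 samples was hybridized to 1 array each. The authors normalized the probe intensities with GCRMA (background adjustment and quantile normalization; version not given in the sources used here) and deposited log2 values for 18952 probe sets. Quantile normalization makes every array's distribution alike, so changes are relative to all transcripts. After 183 controls were left out, genes came from the platform annotation with symbols updated through the Release 6 gene table: 13646 probe sets had 1 gene, 402 several and 4721 none. Arrays carry no read depth; their number limits precision.

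The 7350 probe sets at log2 4 or more on at least 2 arrays were fitted with limma 3.58.1 in R 4.3.3 (6 means of treatment and time class, eBayes with trend), with Benjamini-Hochberg adjustment over all 7350 and a threshold of 0.1. Adjusted p-values are from this fit unless the text names another setting (the replicate block, an array left out, values set to 4), which was fitted the same way. The fit was run on simulated data first. Between treatments, the differences of replicates 1 and 2, both of day 3, correlated at 0.364 to 0.502 and those of replicates 3 and 4 at 0.512 to 0.658. Arrays of equal number thus went together, but the main fit did not use this pairing. A fit with the number as a block, which takes equal numbers as pairs, was the alternative. Replicates 3 and 4 also differ in day. The labels call the replicates biological.

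The members and the gene lists were chosen with earlier results of these data known. All members are accounted for; from each list the genes called in either knockdown with the largest changes are named, at most 4 in each direction. Where a list gene had several probe sets of its own, only the one with the highest mean was used. Of the chaperone list genes named above, this applied to l(3)80Fg and Ire1, with 2 each. Of those only counted, it applied to jdp, CG7650 and l(2)efl, with 3 each. Of the cell markers, it applied to Pxn and grh with 2 each, osk and futsch with 3 each, and brp with 4. ClpX, ClpP and stv were named after their values were seen. Python 3.11.15 and matplotlib 3.10.9 drew the figures.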

Additional observations from a re-analysis of the deposited data

Results flagged for a closer look

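In 3 of 60 sets of 4 arrays (20 members in 3 treatments), 1 array lay far from the others by Dixon's ratio of its gap to the range of the set, where chance gives about 1 in 20 such sets. CCT8 in mock cells had a ratio of 0.855, with mock replicate 4 of day 6 at 12.71 and the others at 12.97 to 13.01. Hsp110 in mock cells had a ratio of 0.857, with the same array at 10.8 and the others at 11.13 to 11.19. Hsc70-5 in Nipped-B RNAi cells had a ratio of 0.832, with replicate 2 of day 3 at 12.49 and the others at 12.71 to 12.75.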

How the results depend on the processing

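No result changed its direction while called. The counts with Rad21 RNAi (16) and Nipped-B RNAi (15) stayed within 1.5 times of these values under every filter, variance model, centring, threshold and model tried, and ranged over 13 to 17 and 11 to 18 without 1 array. The comparison of Rad21 with Nipped-B RNAi called 0 members in every fit (0 to 0 without 1 array). With the replicate block, the paired fit, the time difference of Rad21 RNAi called 2 members in place of 0 (0 to 3 without 1 array, the 3 being CCT7, CCT8 and Hsp110 without mock replicate 3), mock time 10 in place of 6 (1 to 7), Rad21 RNAi at days 4 and 6 11 in place of 7 (5 to 11), Nipped-B RNAi at day 3 13 in place of 6 (1 to 9) and at days 4 and 6 14 in place of 9 (8 to 16). Rad21 RNAi at day 3 called 6 to 17 without 1 array, and the time difference of Nipped-B RNAi 0 to 0. Mock time called 2 members without the filter and 2 at a threshold of 0.05. Fewer samples, more tests or the stricter threshold are built into these alternatives; the cause of the other changes was not tested. Of 3398 values of single genes under the alternatives, 3040 kept their side of the threshold, 262 lost a call and 96 gained one; Hsp68 with Rad21 RNAi (14 alternatives), Hsc70-4 with time in mock cells (13) and CCT4 with Rad21 RNAi (12) lost theirs most often. The block changed the other calls of single members only by adding some. It also called more of all 7350 probe sets in each of these comparisons. For the time difference of Rad21 RNAi these were 344 higher and 344 lower, against 27 and 64 without the block. Probe sets under log2 4 have no usable level, and 2 arrays a group limit each single time.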

Other observations

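The probe sets of several genes add the small heat shock gene Hsp22, which shares its probe sets with CG4456. One of them read 11.21, 10.90, 11.75 and 12.53 with Rad21 RNAi and 11.54, 11.04, 13.09 and 12.49 with Nipped-B RNAi, against 12.17, 11.61, 12.95 and 13.85 in mock cells. It fell by 1.05 ± 0.27 on the log2 scale with Rad21 RNAi (limma, adjusted p = 0.0123), while its neighbour Hsp27 rose. The other read 8.91, 9.08, 9.55 and 9.59 with Rad21 RNAi and 8.999, 9.14, 9.51 and 9.29 with Nipped-B RNAi, against 8.64, 8.94, 9.90 and 10.64 in mock cells, and was called lower only at days 4 and 6, by 0.70 ± 0.21 and 0.87 ± 0.21 on the log2 scale. Both rose with time in mock cells, by 1.51 ± 0.38 and 1.48 ± 0.21. Which of the 2 genes these values belong to cannot be told apart. Of 3 probe sets shared by DnaJ-60 and CG42568, 1 was called lower with Rad21 RNAi, by 0.26 ± 0.09 on the log2 scale (adjusted p = 0.0532).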
